A study of Bos taurus with 90 samples.

Results

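The liver transcriptome of Charolais (CH) steers was compared between a zero-grazed grass phase (ZG) and the first high-concentrate phase (H1), to ask which genes had a different level in the grass phase. All 26 CH libraries whose labels give diet H1 or ZG were used, of 90 libraries in the series. They comprised 20 H1 libraries (9 from low and 11 from high residual feed intake steers) and 6 ZG libraries (3 low and 3 high). Residual feed intake (RFI) is the feed an animal eats beyond what its size and growth predict, so that low RFI marks the more feed-efficient animal. In H1 the steers were offered a concentrate made mainly of rolled barley (860 g/kg), with soya bean meal and molasses at 60 g/kg each and a mineral and vitamin mix at 20 g/kg, plus a limited amount of grass silage, and in ZG they were offered cut fresh grass, each without limit on intake. All animals were steers, with no further treatment or genotype given, and liver was taken by punch biopsy at the end of each phase. H1 came first in life and ZG later, with a grass silage period between them, so diet, age, season and any handling of the libraries by phase cannot be told apart. The 17 CH libraries of the second high-concentrate phase (H2, same recipe as H1, later than ZG) are given below as levels only. The 34 Holstein-Friesian (HF) libraries of H1 (16) and ZG (18) are used for the breed comparison.

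Liver is the main site where a ruminant turns absorbed propionate and amino acids into glucose, detoxifies plant compounds and ammonia, and makes haem, urea and plasma proteins. Haem-dependent cytochrome P450 enzymes and the enzymes that attach glutathione or glucuronic acid clear foreign and endogenous compounds. A set of mitochondrial and cytosolic enzymes passes methyl groups from choline and betaine to homocysteine and folate. A change of feed alters the supply of propionate, ammonia and plant compounds to these pathways.

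Between 9134700 and 34173085 reads per H1 library and between 16726145 and 33208581 per ZG library were counted on genes. The H1 minimum came from steer 443. One ZG library, from low RFI steer 788, stood apart. Its score on the first principal component, which held 22.6% of the variance of the 26 libraries, was 113, whereas the other ZG libraries lay between -6.67 and 37.4. The 20 genes most abundant on average over the 26 libraries took 38.1% of its counts, compared with 29.8% to 33.5% in the other 5 ZG libraries. In the H1 libraries this share ran from 29.3% to 37.1%, so on this measure it stood apart within ZG only. The counts of called genes and most genes below are therefore also given without it. The medians by RFI group and the counts shared with HF steers are given with it included. The file identifies genes by Ensembl number alone, and names came from lists of genes the study had chosen for RFI differences. Most of these came from CH steers in H1 (160 genes) or ZG (158), and the rest from CH steers in H2 (4) or from HF steers, so most were chosen on the libraries compared here. Of 13734 genes tested 325 carried a name, and none of the defining hepatocyte markers (0 of 15) did, so the labelled tissue could not be checked against albumin and the like. Fibrinogen chains FGG and FGA, made by hepatocytes, were abundant, with medians of 12178 and 11477 normalized counts in CPM (counts scaled to equal library size) in H1 and 11495 and 10907 in ZG.

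**Figure D1:**
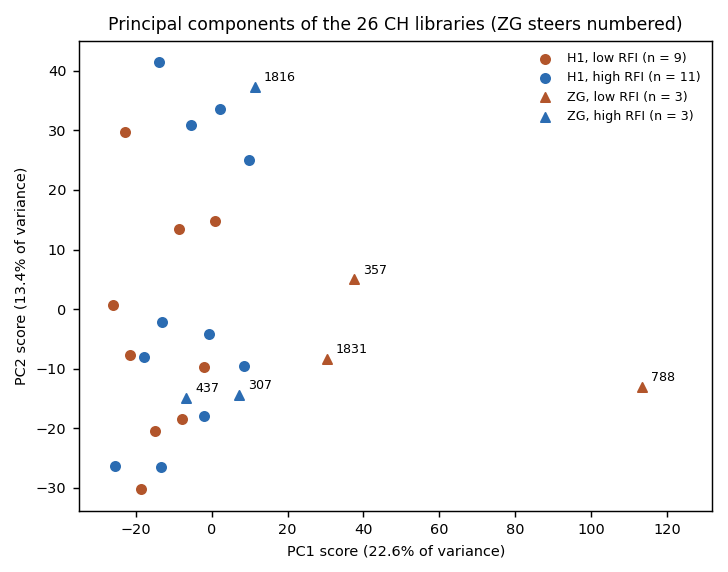
Scores of the 26 CH libraries on the first and second principal components (axes in score units, share of variance in parentheses), with H1 as circles, ZG as triangles and colour for RFI group. The ZG library of steer 788 lies at 113 on the first component, and the next highest library, ZG steer 357, at 37.4.

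Levels of 4460 of 13734 genes (32.5%) differed between ZG and H1, 2248 being higher (16.4%) and 2212 lower (16.1%) in ZG (edgeR quasi-likelihood test with RFI group as a term, Benjamini-Hochberg adjusted p under 0.1, the study's threshold). Most of these differences were modest, with a median absolute log2 fold change of 0.41, and 56 higher and 189 lower genes exceeded 2-fold. A complete separation was rarer. All ZG libraries lay above all H1 libraries for 43 genes (0.313%) and below them for 31 genes (0.226%). The genes with a name were called more often as lower than as higher, 92 against 41 of 325 (28.3% and 12.6%), and 38 against 24 without steer 788. Most had been selected on these samples for RFI, and their count does not describe the transcriptome. No named gene was among those with complete separation.

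Without the ZG library of steer 788, 2158 of 13880 genes were called (15.5%), 925 higher (6.66%) and 1233 lower (8.88%), and 2093 of the original 4460 were called again in the same direction. This library was the highest of the 6 ZG libraries for 1526 of the 2248 higher genes (67.9%) and the lowest for 1763 of the 2212 lower genes (79.7%). Its median log2 distance from the H1 median was 0.63 over the higher genes and -1.22 over the lower ones. The other 5 ZG libraries had medians of 0.19 to 0.35 and -0.21 to -0.53, on the same sides of H1 by smaller distances. The genes had been called with these same libraries, which largely fixes the side. Fitting each steer as a fixed term beside the RFI term, which compares the phases within steers, called 105 genes (31 higher, 74 lower). It leaves 1 residual degree of freedom. Steer 1816 changed RFI label between the phases, so the RFI term takes up its change. The diet change then rests on steers 307 and 1831 alone. With all 90 libraries in a single fit 2476 genes were called (1505 higher, 971 lower).

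The smallest p-values belonged to genes that carry only an Ensembl number. ENSBTAG00000012012 had between 380 and 577 CPM in H1, with a median of 482, and between 746 and 956 in ZG, with a median of 772. ENSBTAG00000021367 ranged from 16.2 to 24.5 CPM in H1 and from 28.9 to 39.3 in ZG. No library of either phase crossed into the other's range for these genes. Their log2 fold changes of 0.78 ± 0.088 and 0.71 ± 0.078 (SE) had an adjusted p of 7.98e-06 each in edgeR. ENSBTAG00000019767 fell by 0.93 ± 0.14 on the log2 scale (adjusted p = 0.000364), from a range of 8.07 to 13.8 CPM in H1 to 2.84 to 7.13 CPM in ZG. ENSBTAG00000006350 fell by 1.43 ± 0.20 (adjusted p = 0.00021), with 5 of 6 ZG libraries below every H1 library. Without steer 788 the changes of these 4 genes were 0.71, 0.62, -0.80 and -1.38, all still called.

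Among genes with a name, the smallest p was that of a haem synthesis gene. ALAS1, the rate-limiting enzyme of haem synthesis, had between 66.9 and 286 CPM in H1, with a median of 179, and between 226 and 588 CPM in ZG, with a median of 423. In ZG 4 of 6 libraries exceeded the highest H1 library and all 6 exceeded the H1 median. The log2 fold change was 1.14 ± 0.19 (SE, edgeR adjusted p = 0.000615) and 1.09 without steer 788. ALAS1 was also the single gene of the P450 and conjugation list called in the high RFI steers alone (1.28, edgeR adjusted p = 0.0633) as well as in the low RFI steers alone (0.94, edgeR adjusted p = 0.0378). Within steers it went from 144 to 226 CPM in steer 307, from 184 to 588 in steer 1816 and from 286 to 406 in steer 1831. The H2 libraries ranged from 161 to 395 CPM with a median of 210, near the level of H1.

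The list of P450 and conjugation genes, which also held regulators, transporters and ALAS1, had 7 measured entries of 46. Of these 5 were called higher and none lower. ALAS1 counts among the called ones, although it makes haem and does not itself act on foreign compounds. Over all genes tested 16.4% were called higher, and over those with a name 12.6%. Without steer 788 the called members were ALAS1, UGT2B15 and 1 of the GSTM1 entries, 3 of 7, where 6.66% of all genes tested were called higher. UGT2B15, which attaches glucuronic acid, had 81.0 to 156 CPM in H1, with a median of 113, and 108 to 214 CPM in ZG, with a median of 160. Its log2 fold change was 0.49 ± 0.12 (edgeR adjusted p = 0.00551), and 4 of 6 ZG libraries exceeded all H1 libraries. The change was 0.47 without steer 788. CYP3A5, a broad-specificity P450, changed by 0.34 ± 0.13 (edgeR adjusted p = 0.0636) and EPHX1, which opens epoxides, by 0.27 ± 0.11 (edgeR adjusted p = 0.0703). Neither was called without steer 788, where their adjusted p in edgeR was 0.228 and 0.192. The glutathione transferase GSTA4 was not called.

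GSTM1, a glutathione transferase, is attached to a pair of Ensembl entries. ENSBTAG00000037673 had 50.3 to 271 CPM in H1, with a median of 196, and 219 to 418 in ZG, with a median of 318. It rose by 0.82 ± 0.21 on the log2 scale (edgeR adjusted p = 0.00829), and by 0.85 without steer 788. ENSBTAG00000017765 had medians of 224 and 263 CPM and a log2 fold change of 0.33 ± 0.21 (edgeR adjusted p = 0.246). The difference between these entries was not tested. Reads that fit near-identical family members may be missing or misplaced in the counts, which applies to UGT2B15 and CYP3A5 as well.

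**Figure D2:**
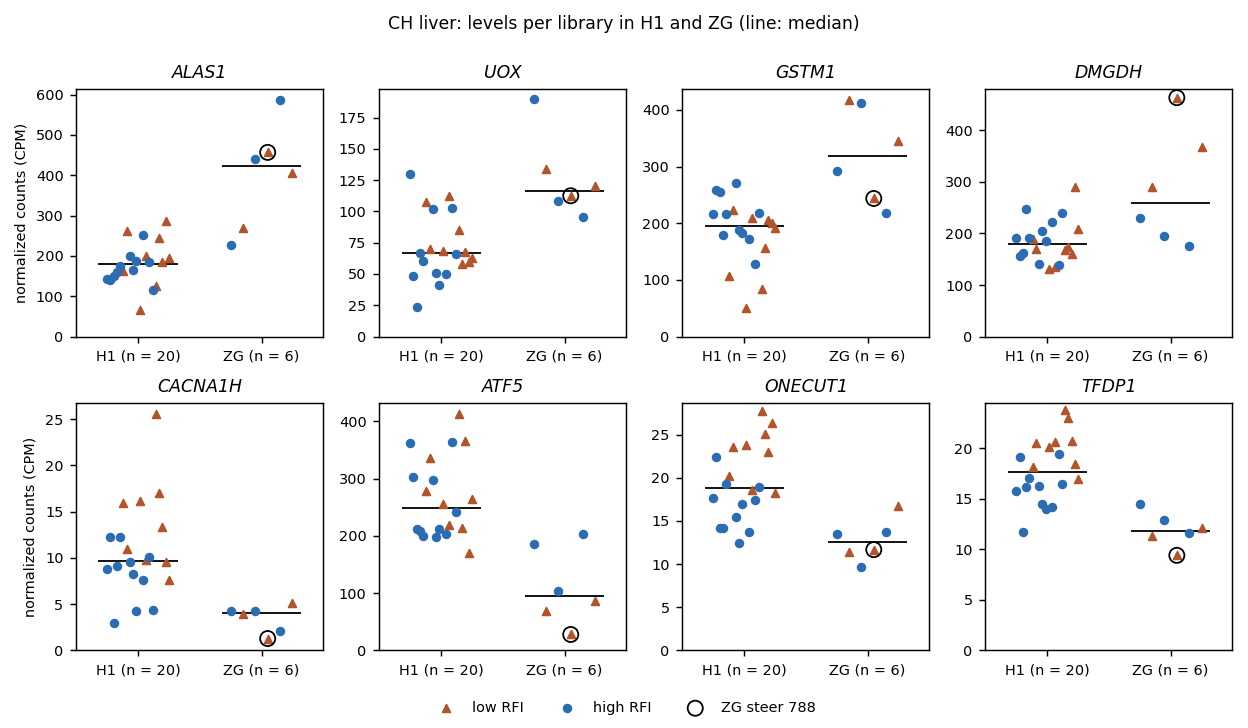
Normalized counts (CPM, linear axis from 0) of 8 genes in each H1 and ZG library of CH steers, with triangles for low and circles for high RFI, a line at the group median and a ring around ZG steer 788. GSTM1 is the entry ENSBTAG00000037673. For ALAS1 the ZG median is 423 CPM against 179 in H1, and for ATF5 it is 95.2 against 249.

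Of the 25 members of the methionine, betaine and folate list 4 carried a name. Of these 4, 2 were called higher and 1 lower, beside 16.4% and 16.1% of all genes tested. Without steer 788 DMGDH alone was called, where 6.66% of all genes tested were called higher and 8.88% lower. DMGDH and SARDH catalyse successive steps of choline breakdown in mitochondria, turning dimethylglycine into sarcosine and sarcosine into glycine. DMGDH ranged from 131 to 291 CPM in H1, with a median of 179, and from 175 to 463 in ZG, with a median of 260. Its log2 fold change was 0.59 ± 0.16 (edgeR adjusted p = 0.0118), with 3 of 6 ZG libraries above all H1 libraries. SARDH ranged from 42.6 to 89.7 CPM in H1, with a median of 70.1, and from 11.2 to 86.3 in ZG, with a median of 40.6. It fell by 0.69 ± 0.24 on the log2 scale (edgeR adjusted p = 0.0426), 3 of 6 ZG libraries lying below all H1 libraries. BHMT2, a methyltransferase that remakes methionine, changed by 0.52 ± 0.22 (edgeR adjusted p = 0.0828). AHCY, which splits S-adenosylhomocysteine, was not called (0.17 ± 0.10).

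The highest DMGDH value in ZG (463 CPM), the highest BHMT2 value (43.4 CPM) and the lowest SARDH value (11.2 CPM) all belonged to steer 788. Without that library DMGDH remained called (0.41, edgeR adjusted p = 0.0943), and SARDH (-0.48, edgeR adjusted p = 0.136) and BHMT2 (0.40, edgeR adjusted p = 0.282) did not. Within each of the 3 steers with both phases DMGDH and BHMT2 were higher and SARDH lower in ZG, SARDH going from 83.4 to 29.8 CPM in steer 1831. For SARDH the H2 libraries had a median of 23.1 CPM, below the ZG median, with a range of 6.09 to 107.

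Enzymes of amino acid and purine breakdown did not share a direction. UOX, urate oxidase, which turns uric acid into allantoin, ranged from 23.6 to 130 CPM in H1, with a median of 66.5, and from 95.3 to 189 in ZG, with a median of 117. The log2 fold change was 0.81 ± 0.22 (edgeR adjusted p = 0.012), and 0.84 without steer 788. All 6 ZG libraries were above the H1 median and 2 above the H1 maximum. In H2 its median was 81.9 CPM. Of the 38 members of the urea cycle and amino acid breakdown list 6 carried a name, of which 1 was called higher and 2 lower. Over all genes tested 16.4% were called higher and 16.1% lower, and over those with a name 12.6% and 28.3%. The higher one was DLD, the dihydrolipoamide dehydrogenase shared by the pyruvate, branched-chain and glycine-cleaving complexes. Its medians were 61.9 CPM in H1 and 77.7 in ZG (0.35 ± 0.10, edgeR adjusted p = 0.0184).

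The lower members were AGXT, which transfers the amino group of alanine to glyoxylate, and ASPG, an asparaginase. AGXT had a range of 52.7 to 158 CPM in H1 and 18.6 to 112 in ZG, with medians of 87.4 and 59.8 (-0.66 ± 0.25, edgeR adjusted p = 0.0585). ASPG had medians of 12.6 and 3.80 CPM (-1.0 ± 0.40, edgeR adjusted p = 0.0725), 4 of 6 ZG libraries lying below all H1 libraries. DLD, AGXT and ASPG were all lost without steer 788, with an adjusted p in edgeR of 0.166, 0.2 and 0.219. PRDX6, an antioxidant peroxiredoxin, showed the same dependence, with a log2 fold change of 0.43 ± 0.12 (edgeR adjusted p = 0.0119) and 0.27 without steer 788 (edgeR adjusted p = 0.11). OSGIN1, the other listed oxidative stress gene with a name, was not called.

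The lower genes chosen by the naming rule included several regulators of transcription and signalling. ATF5, a stress-responsive transcription factor, had between 169 and 413 CPM in H1, with a median of 249, and between 27.7 and 204 in ZG, with a median of 95.2. Of the 6 ZG libraries 4 lay below the lowest H1 library. The log2 fold change was -1.29 ± 0.27 (edgeR adjusted p = 0.00304) and -1.07 without steer 788. Steer 307 went from 362 to 186 CPM, steer 1816 from 365 to 204 and steer 1831 from 169 to 86.4. HSPA1A and HSPB1, the other members with a name in the list of unfolded protein and heat shock genes, were not called. ONECUT1, a hepatocyte nuclear factor, ranged from 12.4 to 27.8 CPM in H1 and from 9.6 to 16.7 in ZG, with medians of 18.8 and 12.6. It fell by 0.62 ± 0.12 on the log2 scale (edgeR adjusted p = 0.00151) and by 0.58 without steer 788, for which its level of 11.7 CPM was not the lowest of the group.

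TFDP1, the partner of E2F factors in cell-cycle transcription, went from a median of 17.6 CPM in H1 to 11.9 in ZG (-0.58 ± 0.11, edgeR adjusted p = 0.00112, and -0.51 without steer 788), every ZG library lying below the H1 median. RGS14, a regulator of G protein signalling, went from 53.3 to 35.2 CPM (-0.69 ± 0.16, edgeR adjusted p = 0.00465, and -0.54 without steer 788). NR0B2, also called SHP, a nuclear receptor that represses bile acid synthesis, had medians of 7.52 and 4.09 CPM (-0.91 ± 0.33, edgeR adjusted p = 0.048). It was lower in ZG in steers 307 and 1831 and higher in steer 1816. SLC10A5, the other listed bile acid gene with a name, was not called. JUN, an early-response transcription factor, changed by -0.35 ± 0.14 (edgeR adjusted p = 0.0791) with medians of 16.2 and 11.7 CPM. GADD45G, MYC, NFKBIA and TNFAIP3, the other early-response genes with a name, were not called. NR0B2 and JUN were not called without steer 788, and NR0B2 was not called with no RFI term (-0.79, edgeR adjusted p = 0.123).

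The largest decreases among called genes with a name and a level of at least 5 CPM included CACNA1H, a T-type calcium channel subunit. It had between 3.01 and 25.5 CPM in H1, with a median of 9.66, and between 1.28 and 5.10 in ZG, with a median of 4.06. The log2 fold change was -1.60 ± 0.31 (edgeR adjusted p = 0.0016), and -1.42 without steer 788. ESPNL, an actin-bundling protein related to espin, had medians of 17.7 CPM in H1 and 5.82 in ZG, with 5 of 6 ZG libraries below the H1 minimum of 10.4 (-1.47 ± 0.34, edgeR adjusted p = 0.00525). CROCC, the ciliary rootlet protein, had medians of 17.6 and 7.30 CPM (-1.31 ± 0.35, edgeR adjusted p = 0.0107). For both, steer 788 gave the lowest ZG value, 1.23 CPM for ESPNL and 0.992 CPM for CROCC, and the change without it was -1.22 and -1.06. In steer 307 these genes hardly moved, ESPNL going from 16.6 to 15.6 CPM and CROCC from 12.3 to 11.0.

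Cell-cycle genes were called lower in 3 of 8 measured members and higher in none, where 16.1% of all genes tested and 28.3% of those with a name were called lower. MCM2, a subunit of the replicative helicase, had a range of 3.83 to 13.9 CPM in H1 and 1.94 to 6.85 in ZG, with medians of 6.72 and 4.32 (-0.72 ± 0.22, edgeR adjusted p = 0.0226). CCND1, cyclin D1, had medians of 11.1 and 7.22 CPM (-0.73 ± 0.24, edgeR adjusted p = 0.0336), and KIF23, a kinesin of the dividing midbody, medians of 21.5 and 13.2 CPM (-0.56 ± 0.22, edgeR adjusted p = 0.0612). The 5 members not called were ANLN, BUB1, BUB1B, CLSPN and UHRF1. Without steer 788 MCM2 (edgeR adjusted p = 0.0871) and KIF23 (edgeR adjusted p = 0.0981) kept their call and CCND1 (edgeR adjusted p = 0.1) did not. In that fit 8.88% of all genes tested were called lower. The list's 8 measured members of 34 had a median log2 fold change of -0.60, beside 0.010 over all genes tested and -0.25 over those with a name.

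Several of these calls also depended on libraries other than that of steer 788. Leaving out ZG steer 357 ended the calls of SARDH, NR0B2, CCND1, CYP3A5, EPHX1, AGXT, ASPG, BHMT2 and JUN, with log2 fold changes of -0.61, -0.77, -0.60, 0.19, 0.24, -0.53, -0.87, 0.47 and -0.28. KIF23 was lost without ZG steer 307, 437 or 1816 (-0.52, -0.43 and -0.54), and CYP3A5 without steer 307 (0.29). AGXT was lost without steer 1831 (-0.63), as were ASPG (-0.87), BHMT2 (0.40) and JUN (-0.28), and without steer 1816 ASPG (-0.90), JUN (-0.36) and EPHX1 (0.24) were lost. EPHX1 was also lost without ZG steer 437 (0.24). Among the H1 libraries, BHMT2 was lost without steer 307, 555, 579, 950, 1100, 1320, 1792, 1797 or 1816 (0.45 to 0.50), EPHX1 without steer 307, 555, 579, 1320, 1496 or 1792 (0.22 to 0.24), CYP3A5 without steer 950 or 1792 (0.30) and ASPG without steer 449 (-0.88). With no RFI term KIF23 (-0.48), CYP3A5 (0.30), EPHX1 (0.25) and ASPG (-0.86) were also lost. The direction was the same in each of these fits. Of the 35 called genes described here, including the 4 known by number, 24 kept their call without steer 788.

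Among genes with a name, the higher ones with the smallest p included some with small increases and narrow ranges. PCBP2, a poly(C)-binding RNA protein, ranged from 155 to 228 CPM in H1, with a median of 186, and from 219 to 246 in ZG, with a median of 233. The log2 fold change was 0.32 ± 0.066 (edgeR adjusted p = 0.00233), 4 of 6 ZG libraries exceeding all H1 libraries. EMC3, a subunit of the complex that inserts proteins into the endoplasmic reticulum membrane, ranged from 83.0 to 143 CPM in H1 and from 135 to 152 in ZG (0.35 ± 0.074, edgeR adjusted p = 0.0026), with 5 of 6 ZG libraries above all H1 libraries. ERMP1, an endoplasmic reticulum peptidase, had medians of 56.3 and 85.0 CPM (0.47 ± 0.11, edgeR adjusted p = 0.00395). DOCK11, a guanine nucleotide exchange factor for CDC42, had medians of 13.9 and 19.9 CPM (0.60 ± 0.13, edgeR adjusted p = 0.00331). All 4 were higher in ZG in each of the 3 steers with both phases and were called without steer 788. The ribosomal protein RPL19 changed by 0.37 ± 0.085 (edgeR adjusted p = 0.00482, and 0.36 without steer 788), and the other 2 measured members of that list were not called.

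GIMAP8, a GTPase of lymphoid cells, had a large fold that came from a single library. It ranged from 11.1 to 34.7 CPM in H1, with a median of 16.6, and its ZG median was 21.6 CPM. Steer 437 had 172 CPM, and the other ZG libraries lay between 12.7 and 27.3. The log2 fold change was 1.34 ± 0.37 (edgeR adjusted p = 0.0127), 1.48 without steer 788 and 0.12 without steer 437 (edgeR adjusted p = 0.621). It was also not called with the steer as a block in limma-voom (0.53, adjusted p = 0.145). Among markers of other cell types, GIMAP4 was the only measured entry of 16 for T and NK cells, with medians of 30.8 CPM in H1 and 97.1 in ZG (0.95 ± 0.74, edgeR adjusted p = 0.355). The measured entries of the other lists, FCGR2B for endothelium (1 of 14), TNC for fibroblasts (1 of 16), PKHD1 for bile duct (1 of 12), FCRL1 for B cells (1 of 12) and CIDEC for adipocytes (1 of 10), were not called. The part of other cells in these results was not tested, and in whole tissue fewer cells of a type and less RNA per cell cannot be told apart.

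Several pathways had no call among the members that carried a name. Members present in the counts by number alone could not be placed, so these lists do not show the pathways as unchanged. Of 32 listed acute phase proteins 7 carried a name, C5, FGA, FGG, HP, LBP, M-SAA3.2 and SERPINA3. Their median log2 fold change was -0.12 and none was called. SERPINA3, a protease inhibitor of the acute phase, ranged from 170 to 1214 CPM in H1 and from 143 to 1184 in ZG, with medians of 476 and 245. The 6 entries with a name, of 41 listed, for complement and coagulation had a median of -0.0069 and no call. No call was made among the named members of fatty acid and triglyceride synthesis (4 of 26), fatty acid oxidation (2 of 30) and glucose metabolism (1 of 28). The same held for the circadian clock (3 of 23), insulin and IGF signalling (2 of 30) and apolipoproteins (3 of 29). It also held for interferon response (1 of 41), metal handling (1 of 33) and oxidative phosphorylation (1 of 57). The members with the smallest p in these lists had log2 fold changes of -0.31 for MID1IP1, 0.12 for ACOT12, -0.25 for PPP1R3C, 0.47 for NOCT, -0.63 for IRS2, 0.13 for ABCA6, 0.12 for IFI44, -0.78 for SLC39A4 and 0.21 for NDUFA4. In complement it was C1R, which was at 0.413 CPM in the median H1 library and reached 37.2 in 1 of them. With the steer as a block in limma-voom NDUFA4, SLC39A4, IRS2 and SERPINA3 passed the threshold, with an adjusted p of 0.0864, 0.0341, 0.0165 and 0.0524. Of those, IRS2 also passed without ZG steer 437 (-1.29, edgeR adjusted p = 0.0197) and SERPINA3 without ZG steer 357 (-1.01, edgeR adjusted p = 0.025). SLC39A4 (-1.14) and NDUFA4 (0.24) passed without ZG steer 1816, MID1IP1 (-0.47) without ZG steer 307 and ACOT12 (0.23) without ZG steer 437, and NDUFA4 (0.22) without H1 steer 856 or 871. Cholesterol synthesis and retinoid handling had no entry with a name.

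More genes were called in the low RFI steers than in the high RFI steers. Fitted alone, the low RFI steers (3 ZG, 9 H1) gave 5433 called genes of 13509 (40.2%) and the high RFI steers (3 ZG, 11 H1) gave 49 of 13358 (0.367%). The difference itself, tested as an interaction of RFI group and diet in edgeR, was called for 1588 of 13734 genes (11.6%), positive as low minus high RFI for 2.66% and negative for 8.9%. Steer 788 is 1 of the 3 low RFI steers in ZG. Without it 1897 of 13703 genes (13.8%) were called in low RFI steers, 3.73% higher and 10.1% lower. The interaction was then called for 158 of 13880 genes (1.14%), with a positive difference for 7 (0.0504%) and a negative one for 151 (1.09%). Steer 1816 was labelled low RFI in H1 and high RFI in ZG, so the groups are not the same animals.

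By RFI group, 131 of the 133 called genes with a name could be fitted in both. The 90 lower ones had a median log2 fold change of -1.46 in low and -0.15 in high RFI steers, and the 41 higher ones 0.44 and 0.19. For ATF5 the changes were -2.23 and -0.64, a difference of -1.57 ± 0.40 (edgeR adjusted p = 0.0259). AGXT changed by -1.63 and -0.011 (difference -1.61 ± 0.37, edgeR adjusted p = 0.0209), and CCND1 by -1.81 and -0.050 (difference -1.75 ± 0.33, edgeR adjusted p = 0.0151). Without steer 788 the difference was -1.24 for ATF5 (edgeR adjusted p = 0.132), -1.32 for AGXT (edgeR adjusted p = 0.108) and -1.40 for CCND1 (edgeR adjusted p = 0.064). UOX went the same way in both groups, by 0.63 in low and 0.94 in high RFI steers. Most genes with a name were selected for RFI differences in CH steers within H1 or ZG, so this pattern among them was partly fixed by that choice, whereas UOX came from the list of HF steers in H2.

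**Figure D3:**
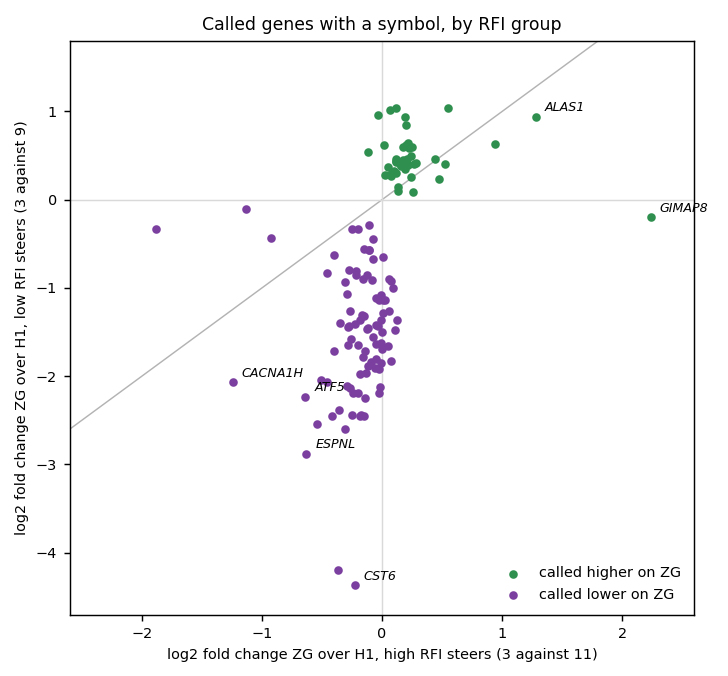
Log2 fold changes of ZG over H1 in low RFI steers (vertical) against high RFI steers (horizontal) for 131 called genes with a name, green where higher and purple where lower on ZG, with the diagonal marking equal change. Most purple points lie well below the diagonal, their medians being -1.46 in low and -0.15 in high RFI steers.

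Steers 307, 1816 and 1831 gave a library in both phases, and the direction of the whole comparison was mostly seen in them. Of the 41 higher genes with a name 35 were higher in ZG in all 3 steers, and of the 92 lower genes 75 were lower in all 3. Over all called genes this held for 1767 of 2248 and 1662 of 2212. These libraries also entered the calls, so the directions are given as a description. Of the 35 called genes described here, 2 (ATF5 and ENSBTAG00000012012) were also called with each steer as a fixed term, and the other 33 were not. That fit takes the diet change from steers 307 and 1831 alone. UGT2B15 was higher in ZG in every pair, going from 104 to 155 CPM in steer 307, from 133 to 214 in steer 1816 and from 85.6 to 163 in steer 1831. For GSTM1 (ENSBTAG00000037673) the steers went from 216 to 292, from 206 to 219 and from 200 to 345 CPM.

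**Figure D4:**
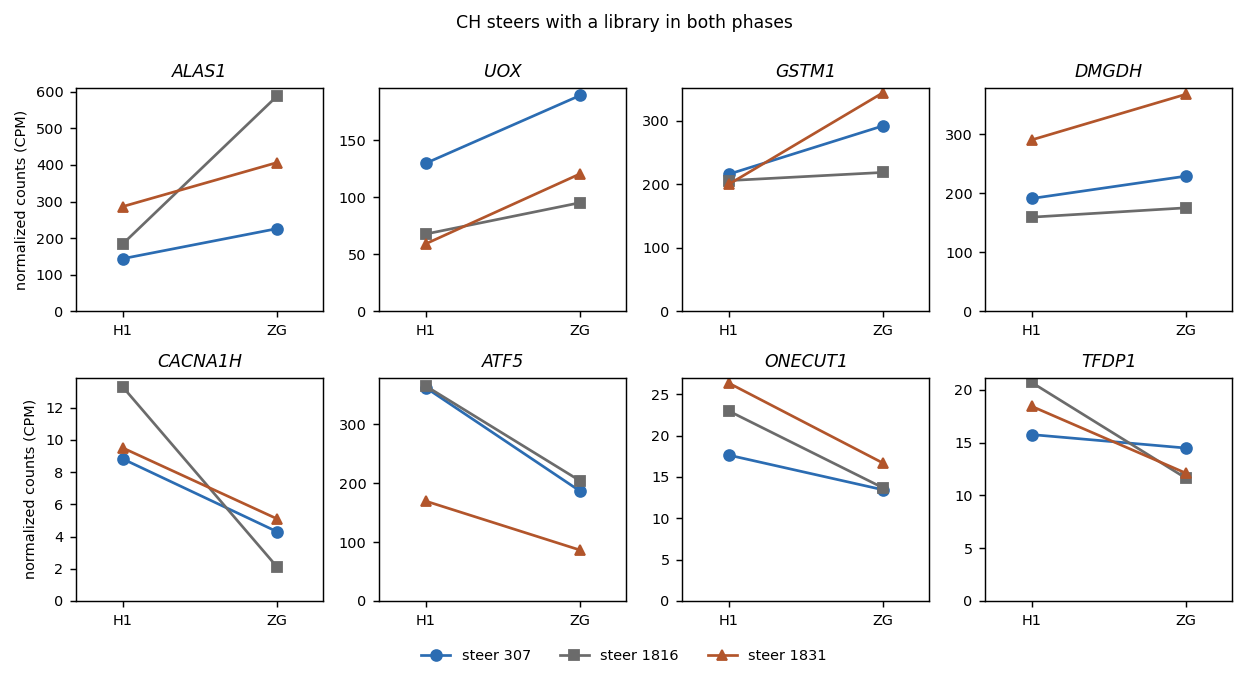
Normalized counts (CPM, linear axis from 0) of 8 genes in the H1 and the ZG library of CH steers 307, 1816 and 1831, each line being 1 steer. ALAS1, UOX, GSTM1 (ENSBTAG00000037673) and DMGDH are higher and CACNA1H, ATF5, ONECUT1 and TFDP1 lower in ZG in all 3 steers, ALAS1 in steer 1816 going from 184 to 588 CPM.

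None of these differences was shown to be particular to CH. The breed difference in the change, tested over the 60 H1 and ZG libraries of both breeds, was called for 0 of 13916 genes in edgeR (0%), with 460 genes at an unadjusted p under 0.05 and a smallest adjusted p of 0.9993. DESeq2 called 1 gene. In HF steers alone 7524 of 13261 genes were called (56.7%), 30% being higher and 26.7% lower in ZG. Of the 41 CH genes with a name that were higher, 38 were called higher in HF, and of the 92 lower genes, 91 were tested and 81 called lower. No gene among these was called in the opposite direction. ALAS1 changed by 1.14 ± 0.19 in CH and 1.36 ± 0.17 in HF, a difference of -0.21 ± 0.29, and ATF5 by -1.29 ± 0.27 and -1.57 ± 0.33, a difference of 0.31 ± 0.47. CACNA1H changed by -1.60 ± 0.31 and -1.91 ± 0.22.

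The genes with a name and the smallest p for a breed difference did not pass adjustment either. ANAPC15, a subunit of the anaphase-promoting complex, changed by 0.14 ± 0.10 in CH and 0.52 ± 0.088 in HF, a difference of -0.39 ± 0.15. MAOB, monoamine oxidase B, changed by 0.04 ± 0.11 and 0.38 ± 0.079, a difference of -0.33 ± 0.14. CHI3L2, a chitinase-like protein, had a difference of 2.03 ± 0.98, with a ZG range of 0.606 to 7.15 CPM in CH. B4GALT6 and RAD54L had differences of 0.36 ± 0.18 and 0.45 ± 0.23, and C1R one of -4.55 ± 1.88 at a level close to 0 in most libraries. Each had an adjusted p of 0.9993 in edgeR.

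**Figure D5:**
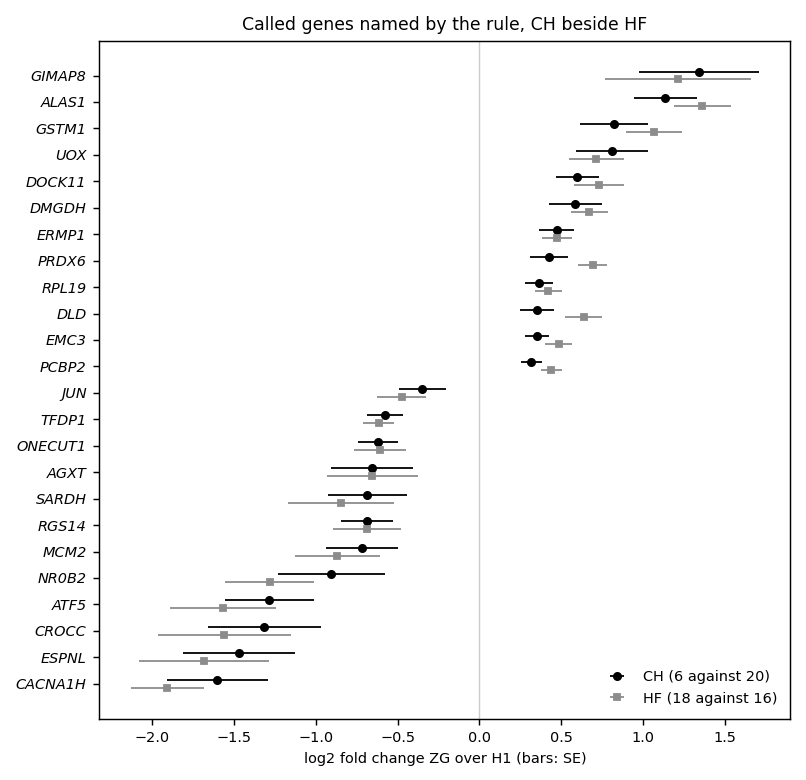
Log2 fold changes of ZG over H1 with their standard errors (bars) for the 24 called genes chosen by the naming rule, in CH (black, 6 against 20 libraries) and HF (grey, 18 against 16). The breeds lie on the same side of 0 for every gene shown, for example ALAS1 at 1.14 in CH and 1.36 in HF.

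The H2 libraries of CH steers were taken later, on the same concentrate recipe as H1. For most of the called genes chosen by the naming rule the H2 median lay beyond that of ZG, away from H1. It lay between H1 and ZG for ALAS1, UOX, ERMP1, DOCK11, DMGDH and GIMAP8. For UGT2B15 the medians in H1, ZG and H2 were 113, 160 and 127 CPM, for ERMP1 56.3, 85.0 and 61.8 CPM, and for UOX 66.5, 117 and 81.9 CPM. For ATF5 they were 249, 95.2 and 54.2 CPM, for CACNA1H 9.66, 4.06 and 2.61 CPM, and for PCBP2 186, 233 and 264 CPM. No test was made on H2, which would share the H1 or ZG libraries with the comparison above.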

How the data were processed

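Liver RNA of steers was sequenced by the authors as single-end reads, trimmed, aligned to the bovine build UMD3.1 with STAR (version 2.5.3a per the labels) and counted per Ensembl gene, and the authors deposited raw counts without normalization. The study's methods give another STAR version, and the strand setting of the counting is not given in the sources used here. The 24616 genes of 90 libraries were read, and 26 libraries entered the main comparison. The counts name genes by Ensembl number only. Names came from the study's supplement, which pairs 328 of 352 identifiers with a name. Members, lists and tests were chosen with earlier results of these data known. Positions and sequences were not used here.

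The counts were tested in edgeR 4.0.16 (R 4.3.3) with TMM normalization, filterByExpr, robust quasi-likelihood dispersions, RFI group and diet as terms, and Benjamini-Hochberg adjustment over all genes tested (called at an adjusted p under 0.1). The SE was computed as the absolute log2 fold change divided by the square root of F. Levels are CPM on library totals scaled by TMM factors over all 90 libraries. The breed difference was tested as an interaction over 60 libraries. Some HF steers also gave a library in both phases, and neither this fit nor that of HF steers alone had a steer term. Limma 3.58.1 and DESeq2 1.42.0 gave alternatives, the choices for which are described in the closing section. Python 3.11.15 with pandas 2.3.3 and matplotlib 3.10.9 drew the figures. Nothing says whether libraries of a group differ in anything but the steer and its RFI label. The p-values set a difference against the spread between libraries that remains after the fitted terms. The main test had no steer term. It treated the 26 libraries as independent, although steers 307, 1816 and 1831 gave a library in each phase. On simulated data with 13616 genes tested and changes of 1 on the log2 scale, edgeR recovered 85.2% of 196 changed genes for the CH comparison with 15 false calls. For the breed difference it recovered 70.1% of 197 among 13755 genes, with 10 false calls. The simulated libraries were independent, with no shared steer and no library set apart like that of steer 788. In the real data the median absolute log2 change of called genes was 0.41. These shares therefore do not give the sensitivity of the real comparisons.

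Steer numbers in the labels pair the H1 and ZG libraries of steers 307, 1816 and 1831, which are the same animals. The deviations of these libraries from a fit of RFI group and diet correlated over 13734 genes at 0.355, 0.321 and 0.261. Among the 20 H1 libraries the one of the same steer had rank 1, 3 and 1. The block correlation in limma was 0.51. The number 1797 occurs on a CH and on an HF library, and a fit without the CH library was made.

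Genes were named by rule. The rule took the 5 called genes with the smallest p in each direction that have a name and the 4 with the largest absolute change in each direction with a median of at least 5 CPM in the higher group. It added from each function list 1 called member per direction (2 where at least 8 were called), or the member with the smallest p, and the 3 genes with the smallest p in each direction for the breed difference. The other called members of the lists, the second GSTM1 entry, AHCY, GSTA4, the fibrinogen chains and GIMAP4 were added after their values were seen. ALB, APOA1, TTR and TF carried no name in the supplement.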

Additional observations from a re-analysis of the deposited data

Results flagged for a closer look

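Single ZG libraries lay far from the others of their group, by the gap between the most extreme library and its neighbour as a share of the group's range, in 6 of 49 measures examined. The cut-off is set for about 1 in 20 in normally distributed values. Most of these measures are CPM on a linear scale, and the same libraries enter all of them. That rate may therefore not hold here, and an excess over chance was not tested. Steer 788 had a first principal component score of 113 against a next highest of 37.4, and a DLD level of 115 CPM against 84.6. Steer 437 had 172 CPM of GIMAP8 against 27.3 and 8.44 CPM of IRS2 against 3.37. Steer 357 had 1184 CPM of SERPINA3 against 456, and steer 307 had 375 CPM of PPP1R3C against 176.

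The change from H1 to ZG differed between low and high RFI steers for 1588 genes, by a test of the difference in edgeR, and for 158 without ZG steer 788. Of the 45 genes with a name that were followed, 22 were among the 1588 and 7 among the 158, beside 11.6% and 1.14% of all genes tested. Given as low minus high RFI on the log2 scale, the difference was negative for TFDP1 (-0.61), RGS14 (-0.98), ATF5 (-1.57), ESPNL (-2.23), CROCC (-1.98), GIMAP8 (-2.44), MCM2 (-1.18), SARDH (-1.57), AGXT (-1.61), JUN (-0.95), SLC39A4 (-2.90), IRS2 (-2.39), NOCT (-2.76), CCND1 (-1.75) and ASPG (-2.25). It was positive for DOCK11 (0.76), DMGDH (0.96), SERPINA3 (1.57), ACOT12 (0.63), ABCA6 (1.01), IFI44 (1.11) and KIF23 (1.04). The 7 still called without steer 788 were ESPNL (-1.85), GIMAP8 (-2.75), SARDH (-1.25), JUN (-1.0), SLC39A4 (-2.67), ABCA6 (1.02) and CCND1 (-1.40). Most genes with a name had been chosen by the study for RFI differences in these libraries.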

How the results depend on the processing

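The main comparison, with 4460 genes called, gave between 3057 and 5433 under DESeq2, DESeq2 size factors, upper quartile normalization, other filters on low counts, an adjusted p under 0.05, no RFI term, sample quality weights, thinned counts, the fit without steer 1797 and low RFI steers alone (5433). A replicate block for the steer, fitted in limma-voom, gave 6511, against 5021 in the same fit without the block. Among the genes described GIMAP8 lost its call in limma-voom both with and without the block. The steer as a fixed replicate block in edgeR, with the diet change resting on steers 307 and 1831 and 1 residual degree of freedom, gave 105 genes. It ended 33 of the 35 calls described, ALAS1, TFDP1, UOX and CACNA1H included, with ATF5 and ENSBTAG00000012012 the exceptions. High RFI steers alone gave 49. All 90 libraries in a single fit gave 2476, the libraries without ZG steer 788 and H1 steer 443 together 2151, and low RFI steers without steer 788 gave 1897, the last pair being chosen after seeing the data. Leaving out each steer gave 2158 to 5313 genes. The RFI interaction, also chosen after seeing the data, went from 1588 to 158 without steer 788. DESeq2 called 1 gene for the breed difference and each other alternative 0. Of the 35 calls described, 5 were lost with no RFI term, 4 with no filter on low counts, 7 at an adjusted p under 0.05, 3 with quality weights, 8 with all 90 libraries and 28 in high RFI steers alone, where another 2 (JUN and BHMT2) reversed. The causes were not tested. Some weak changes reversed. In high RFI steers alone JUN was 0.058, SLC39A4 0.19, IRS2 0.27, ACOT12 -0.21, ABCA6 -0.42, IFI44 -0.49 and BHMT2 -0.038. In low RFI steers alone GIMAP8 was -0.20, SERPINA3 0.22 and NOCT -1.28, and without steer 788 as well they were -0.49, 0.61 and -1.58. With the fixed block PPP1R3C was 0.17, NOCT -1.23 and IFI44 -0.25. NOCT was -0.011 with no RFI term, -0.17 with the limma block, -0.45 with quality weights and -0.31 without steer 437. Without steer 788 ACOT12 was -0.0034 and IFI44 -0.15, and with H1 steer 443 left out as well IFI44 was -0.15. Over all fits that left out 1 steer ACOT12 lay between -0.0034 and 0.23, NOCT between -0.31 and 0.72, ABCA6 between -0.020 and 0.23 and IFI44 between -0.15 and 0.22. IFI44 was -0.044 with quality weights, ABCA6 -0.020 without steer 357 and C1R 0.20 in DESeq2. The number of ZG libraries, 6, limits the precision.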
